A study of Homo sapiens with 2 samples.

Results

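The genes of chromosome 20 were compared between parental BEAS-2B cells and BEAS-2B cells that overexpress TRPV3. Members were chosen by position and read number: all genes placed on chromosome 20 in the deposited tables with at least 20 read counts summed over both libraries, which gave 384 of 13931 such genes. They were divided at 26 Mb by the lowest start of each gene, with 121 on the short arm and 263 on the long arm. The position and the summed counts chose the members, and the difference between the arms was already known when chromosome 20 was picked, so the arm values are a description and carry no test.

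BEAS-2B is a line of human bronchial epithelial cells that was immortalised, and TRPV3 is a warmth-sensitive cation channel of the TRP family that lets calcium in. The parental group, of wild-type genotype, was 1 library of untreated BEAS-2B cells at a passage between 20 and 30, and the TRPV3-OE group was 1 library of untreated TRPV3-overexpressing BEAS-2B cells at a passage between 4 and 8. Cells of both groups grew in LHC-9 medium on a coat of collagen and fibronectin and were snap frozen at confluence after plating at the same density. The labels do not give the promoter that drives TRPV3 or whether the line is 1 clone, and passage and overexpression cannot be told apart. With 1 library per group there is no replicate check, so no p-value is given, and all intervals are exact 95% intervals that cover counting error only.

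The sum over genes was 17450658 counts for the parental and 17477953 for the TRPV3-OE library. TRPV3 itself, on chromosome 17, had 26 and 54077 counts. All 5 epithelial markers were measured and their summed level was 2457 counts per 1000000 (CPM) for parental cells and 3094 CPM for TRPV3-OE cells. Of these, CDH1 went the other way, at 471 and 442 CPM. The airway basal markers summed to 3136 and 1982 CPM with 4 of 5 measured, and KRT14 had 15 and 0 counts. The secretory and ciliated markers reached 0.350 and 1.68 CPM with SCGB1A1 at 0, and the lung lineage genes NKX2-1 and SFTPC were at 0 in both libraries. Endothelial markers summed to 16.7 and 3.26 CPM, with CDH5 at 268 and 35 counts and PECAM1 at 14 and 23. Fibroblast markers summed to 24.0 and 16.2 CPM, nearly all from COL1A1 with 410 and 285 counts. COL3A1 was at 0 in both libraries, COL1A2 had 1 and 2 counts and PDGFRA 0 and 1. The leukocyte genes PTPRC and CD3E were at 0. The part of these marker differences, and of passage, in the values of chromosome 20 was not tested. In RNA from whole cultures, fewer cells with a transcript and less of it per cell cannot be told apart.

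Chromosome 20 is a small human chromosome with genes along both arms. Its short arm carries housekeeping genes such as the sliding clamp PCNA and the splicing protein SNRPB, the NOTCH ligand JAG1, and the cystatin protease inhibitors near the centromere. Its long arm carries the BPI-fold proteins and whey acidic protein (WAP) protease inhibitors of mucosal surfaces, the G protein gene GNAS, and a distal region, 20q13, that is often gained in tumours. Genes of one chromosome arm share its copy number in a cell, unless only a part of the arm is gained or lost. DNA was not analysed here.

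Upstream sequences of 5 members are shown so that the letters before genes near the short-arm median ratio (GINS1, PSMF1) can be set beside those before genes at least 2-fold higher (RALGAPA2, PLTP) or lower (ZNF334). They are the 250 bases upstream of the RefSeq gene start on GRCh38.p14, read 5′ to 3′ on the strand of the gene, with each CG dinucleotide in capitals. The 5 genes were picked after their values were seen, from 14 named genes whose windows touch no annotated exon. RALGAPA2 (chr20:20712645-20712894, minus strand), GINS1 (chr20:25407423-25407672, plus strand) and PSMF1 (chr20:1113013-1113262, plus strand) are on the short arm. PLTP (chr20:45912156-45912405, minus strand) and ZNF334 (chr20:46513560-46513809, minus strand) are on the long arm. The windows of RALGAPA2 and GINS1 end 156 and 54 bases before the gene start of the count tables, and the other 3 adjoin it.
RALGAPA2: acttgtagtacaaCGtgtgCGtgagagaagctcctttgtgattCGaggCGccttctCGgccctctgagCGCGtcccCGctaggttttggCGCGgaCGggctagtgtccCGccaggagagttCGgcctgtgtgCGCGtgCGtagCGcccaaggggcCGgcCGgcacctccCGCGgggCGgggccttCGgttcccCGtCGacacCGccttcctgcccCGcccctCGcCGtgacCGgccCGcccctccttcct
GINS1: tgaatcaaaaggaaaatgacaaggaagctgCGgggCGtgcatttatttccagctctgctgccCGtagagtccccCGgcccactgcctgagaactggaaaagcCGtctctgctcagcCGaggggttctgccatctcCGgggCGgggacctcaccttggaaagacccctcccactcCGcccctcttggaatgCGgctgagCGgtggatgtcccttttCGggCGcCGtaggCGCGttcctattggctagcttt
PSMF1: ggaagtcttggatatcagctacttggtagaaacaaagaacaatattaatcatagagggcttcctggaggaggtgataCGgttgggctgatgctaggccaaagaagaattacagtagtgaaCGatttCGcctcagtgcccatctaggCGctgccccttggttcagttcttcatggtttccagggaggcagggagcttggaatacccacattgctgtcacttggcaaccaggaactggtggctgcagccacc
PLTP: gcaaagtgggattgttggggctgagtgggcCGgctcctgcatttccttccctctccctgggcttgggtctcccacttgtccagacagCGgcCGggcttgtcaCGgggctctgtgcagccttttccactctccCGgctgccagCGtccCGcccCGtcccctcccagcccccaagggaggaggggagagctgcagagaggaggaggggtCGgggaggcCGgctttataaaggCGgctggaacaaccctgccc
ZNF334: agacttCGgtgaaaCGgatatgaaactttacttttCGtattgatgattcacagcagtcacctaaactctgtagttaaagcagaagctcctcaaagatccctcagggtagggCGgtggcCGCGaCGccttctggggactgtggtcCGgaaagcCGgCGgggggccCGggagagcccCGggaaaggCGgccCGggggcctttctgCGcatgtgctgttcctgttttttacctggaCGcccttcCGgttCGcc

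The CG dinucleotides number 31 before RALGAPA2, 16 before GINS1 and 4 before PSMF1, all with higher values in the TRPV3-OE library. They number 11 before PLTP, which was higher, and 18 before ZNF334, which was lower. The window of PLTP holds TATAAA and that of GINS1 holds CCAAT, here on the opposite strand. In all, 275 of 384 members had a window in the RefSeq table. The median window of the short arm was 66.2% G and C with 22 CG dinucleotides, against 67.2% and 24 on the long arm and 58% and 11 over all 35116 windows of the table. Members have 1 window each, the nearest to the gene start of the count tables. All windows of the table include those of genes that were not measured. The sets are thus unlike, and a difference between them cannot be read as a trait of chromosome 20. The motif TATAAA, searched on both strands, stood in 2 of 88 short-arm windows (2.27%) and 15 of 187 long-arm windows (8.02%), against 10.7% of all windows. CCAAT on either strand stood in 29.8% of the windows of chromosome 20 and in 32.0% of all windows. TGACTCA stood in 4 of 275 windows of chromosome 20 (1.45%) and in 4.20% of all windows. A match is only a description of the letters. ISM1, PPP1R16B and SLPI had no entry in the table.

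The study set BEAS-2B cells against their TRPV3-overexpressing derivative, and the question here was how transcripts of chromosome 20 differ. Short-arm genes were mostly higher in the TRPV3-OE library and long-arm genes lay near equal levels. The log2 ratio, TRPV3-OE over parental after scaling of the libraries, had a median of 0.59 on the short arm, a 1.5-fold difference, with quartiles at 0.32 and 0.85. On the long arm the median was 0.12, a 1.08-fold difference, with quartiles at −0.11 and 0.51. The long-arm median was lower by 0.47 on the log2 scale, a difference of −0.47. Over all 384 members the median was 0.29, and over the 13547 genes of all other chromosomes it was −0.02, with quartiles at −0.39 and 0.36.

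**Figure D1:**
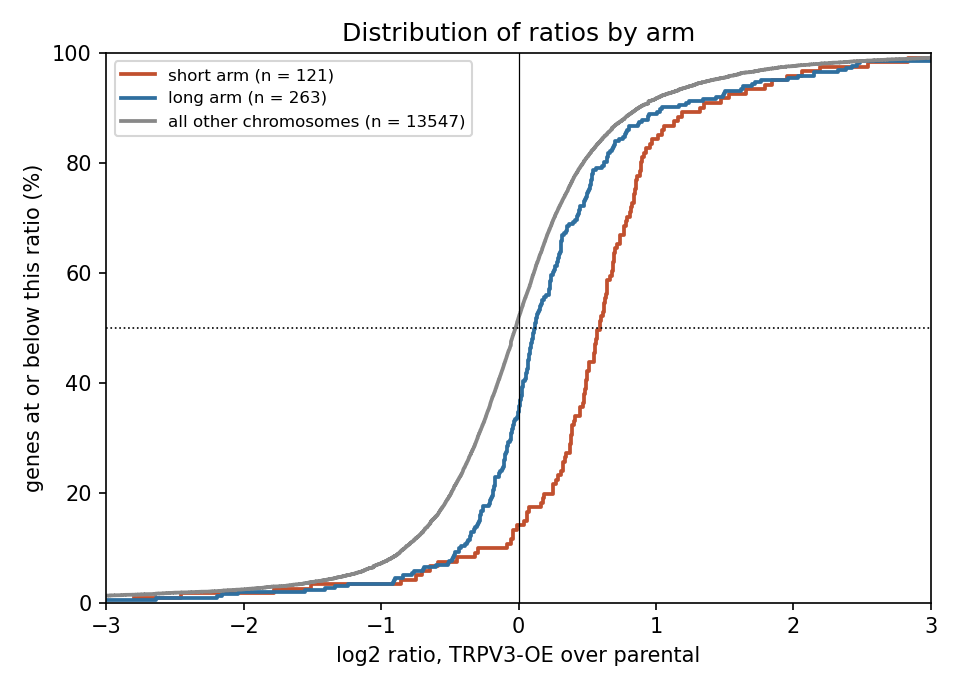
Cumulative share of genes (y axis, percent) at or below each log2 ratio of TRPV3-OE over parental (x axis), for the 121 short-arm members, the 263 long-arm members and the 13547 genes of other chromosomes. The short-arm curve crosses 50% at 0.59, the long-arm curve at 0.12 and the curve of other chromosomes at −0.02.

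Summed over its members, the short arm gave 8487 CPM in parental and 12289 CPM in TRPV3-OE cells, a ratio of 1.45. The long arm gave 27518 and 28692 CPM, a ratio of 1.04. As shares of all counts, the short arm held 0.833% and 1.25%, and the long arm 2.70% and 2.92%. The short-arm gain was thus spread over many genes: 104 of 121 members (86.0%) had a ratio above 1, as did 171 of 263 long-arm members (65.0%) and 48.8% of all 13931 genes. The interval of the ratio lay wholly above 1 for 94 short-arm members (77.7%) and 107 long-arm members (40.7%), against 31.9% of all genes. It lay wholly below 1 for 9 (7.44%) and 64 (24.3%), against 34.7% of all genes.

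Differences of the size of the short-arm median were counted next, in a band set around it. A ratio between 1.25-fold and 1.75-fold higher was found for 54 of 121 short-arm members (44.6%), 52 of 263 long-arm members (19.8%) and 15.9% of all genes. Because the band was set around the short-arm median, the larger share on that arm largely restates that median. For a call of at least 2-fold, the ratio had to pass 2-fold and its whole interval had to lie on the same side of 1. By that rule 18 short-arm members (14.9%) and 28 long-arm members (10.6%) were higher, against 7.85% of all genes. Only 4 short-arm members (3.31%) and 9 long-arm members (3.42%) were lower, against 6.76% of all genes. When the median of the own arm was subtracted, 9 of the 18 higher short-arm members were no longer 2-fold higher. On the long arm, 26 of 28 higher members still passed 2-fold after that subtraction. A positive median can only move lower members further down, so their calls were not open to this change.

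The short-arm median was nearly the same among well-read genes, while that of the long arm was smaller. Among members with at least 1000 summed counts, the 73 of the short arm had a median log2 ratio of 0.59 with quartiles at 0.38 and 0.78, and 69 of them were above 0. The 165 of the long arm had a median of 0.06 with quartiles at −0.14 and 0.31. The interval lay above 1 for 71 of those 165 and below 1 for 51. With 20 to 99 summed counts the median was 0.85 on the short arm (13 genes) and 0.53 on the long arm (48 genes), against 0.18 for such genes on other chromosomes. In the class between, from 100 to under 1000 counts, the medians lay closer together. They were 0.45 on the short arm (35 genes, quartiles 0.01 and 1.18) and 0.23 on the long arm (50 genes, quartiles −0.08 and 0.99). The interval lay above 1 for 22 of those 35 short-arm genes and below 1 for 7. All 4 short-arm members at least 2-fold lower were among them. Protein-coding members had medians of 0.56 (108 genes, short arm) and 0.09 (224 genes, long arm). Other members, mainly noncoding RNAs and pseudogenes, had medians of 0.93 (13 genes) and 0.53 (37 genes), against 0.15 on other chromosomes. On the short arm, genes of the plus strand (0.57) and the minus strand (0.59) had nearly the same median.

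Along the chromosome, the medians of neighbouring genes were above 0 over the whole short arm, but single genes differed. In 6 runs of 20 or 21 neighbouring short-arm members, the median log2 ratio was 0.47, 0.36, 0.68, 0.61, 0.59 and 0.76 from the tip to the centromere. The tip run was mixed, with a lower quartile of −0.09 and intervals wholly below 1 for 5 of its 21 members. Such members numbered 3 of 20 in the run at 8 to 17.9 Mb and 1 of 20 in the run next to the centromere. The 13 runs of the long arm ranged from −0.12 to 0.38. The lowest of these began next to the centromere, between 28.6 and 33.4 Mb, and the next, between 33.5 and 34.9 Mb, was at −0.09. The highest long-arm runs were at 45.4 to 46.3 Mb (0.38), 49.8 to 51.8 Mb (0.35) and 58.9 to 62.3 Mb (0.31), and the terminal run was at −0.03. So the highest run of the short arm and the lowest of the long arm faced each other across the centromere.

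**Figure D2:**
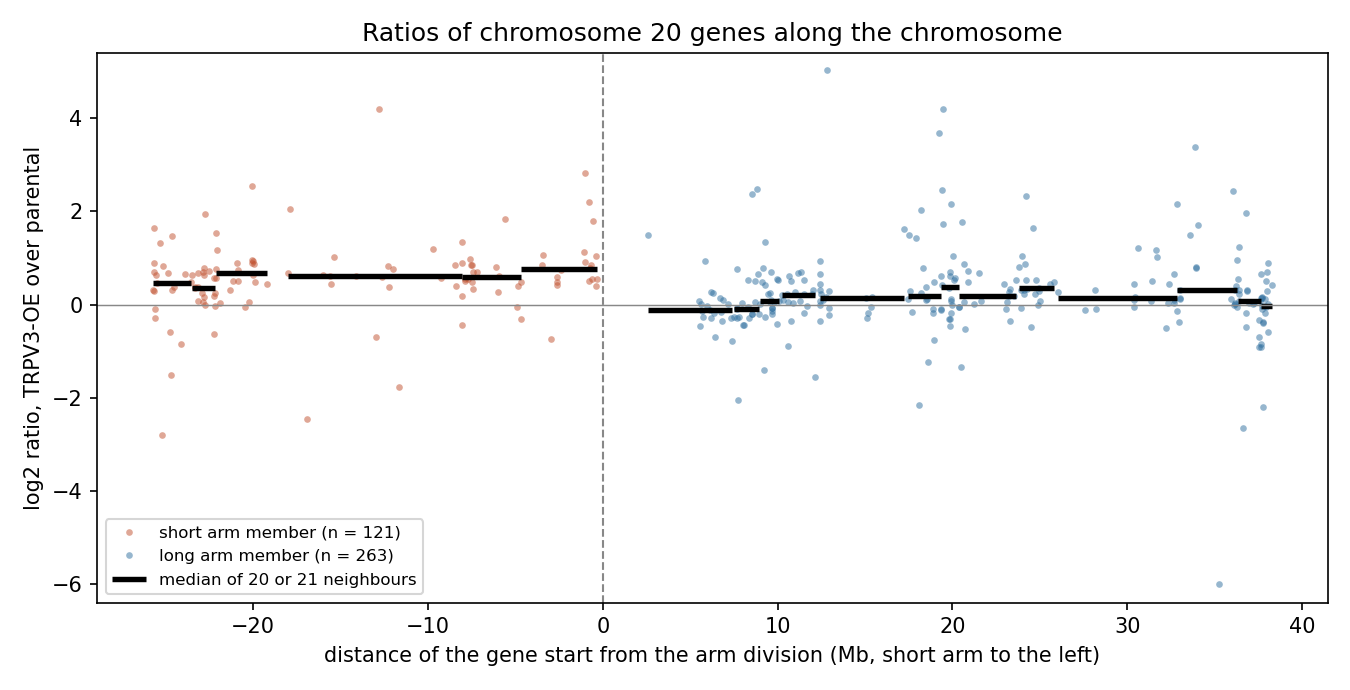
Log2 ratio of TRPV3-OE over parental (y axis) of each chromosome 20 member against the distance of its start from the division of the arms (x axis, Mb, short arm to the left), with black bars for the median of each run of 20 or 21 neighbours. The 6 short-arm bars lie between 0.36 and 0.76 and the 13 long-arm bars between −0.12 and 0.38.

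The change at the centromere was seen gene by gene. The last 10 short-arm members, from ACSS1 to ZNF337, ranged from 0.39 to 2.83 with a median of 0.82, and all 10 intervals lay above 0. The first 10 long-arm members after FRG1CP, from HM13 to POFUT1, ranged from −0.46 to 0.94 with a median of −0.08, and their intervals lay above 0 for 2 and below 0 for 5. ZNF337, a zinc finger gene, had a log2 ratio of 0.56, and HM13, a signal peptide peptidase, 0.09. Between them, FRG1CP, a pseudogene of the FRG1 family, was the only member from 26 to 31 Mb, with 53 and 156 counts and a log2 ratio of 1.5. FRG1CP has near-identical copies, so its counts are uncertain.

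Ranked by the median ratio, chromosome 20 stood at the top of 23 chromosomes (0.29), followed by chromosome 21 (0.25) and chromosome 7 (0.24), and chromosome 4 was lowest (−0.44). With a minimum of 100 counts, chromosome 21 (0.26) passed chromosome 20 (0.25). High values over a large segment were also found outside chromosome 20. The 318 genes of chromosome 1 between 54 and 150 Mb had a median of 0.62, close to the short arm of chromosome 20, and chromosome 16 had a median of −0.32 over 626 genes.

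**Figure D3:**
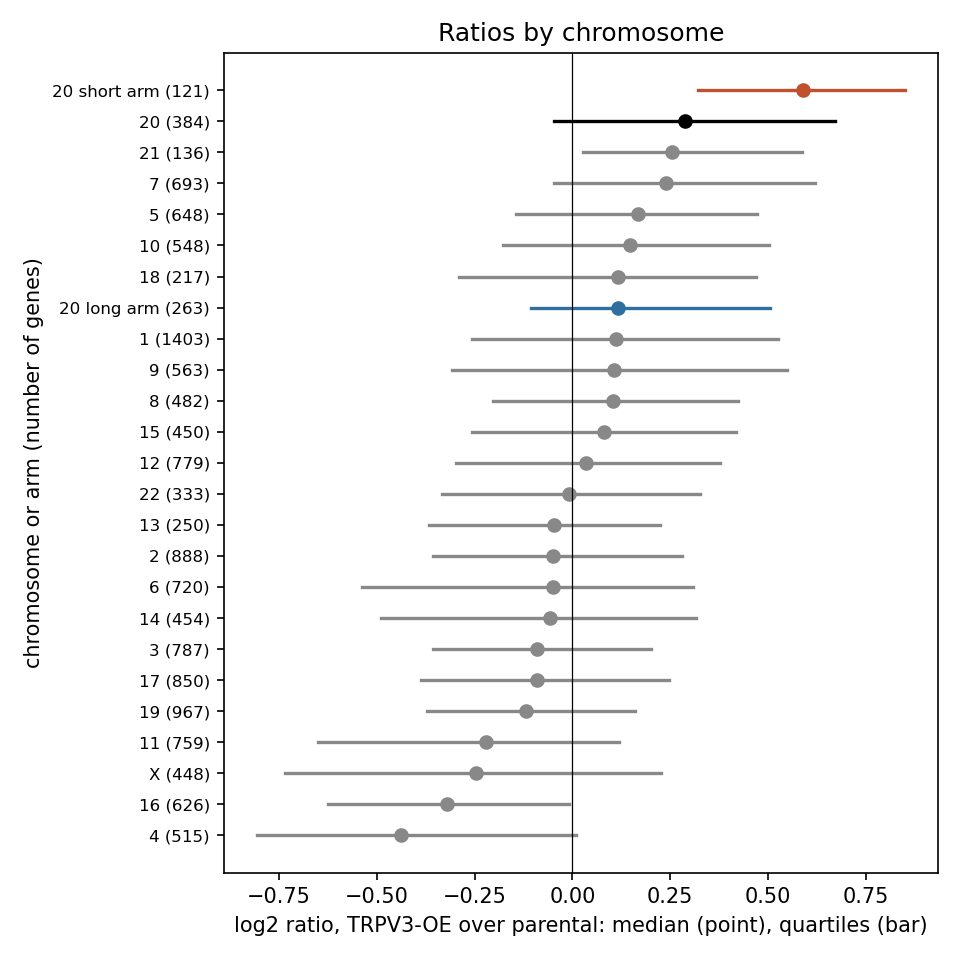
Median (point) and quartiles (bar) of the log2 ratio of TRPV3-OE over parental for each chromosome and for both arms of chromosome 20 (y axis, number of genes in brackets). The short arm of chromosome 20 (0.59) lies above every whole chromosome, and the long arm (0.12) lies within their range of −0.44 to 0.29. Other chromosomes are not split by arm here, so the short arm is not ranked among arms.

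Levels of single genes are given below, first for the short arm. The member with the most reads per length on the short arm was SNRPB, a core protein of the spliceosome particles, at 328 CPM per kb of exon in the parental and 460 in the TRPV3-OE library. PCNA, the clamp that holds DNA polymerases on their template, followed at 291 and 414 CPM per kb. DSTN, an actin-depolymerising protein, had 7538 and 14194 counts, or 440 CPM (430 to 450) and 797 CPM (784 to 810), with a log2 ratio of 0.86. PCNA had 7322 and 10855 counts (0.51) and SNRPB 7177 and 10460 (0.49). NOP56, a component of the box C/D snoRNA particles, had 7541 and 9983 counts (0.35), and PRNP, the prion protein, 5002 and 6432 (0.31). All 5 of these most-read short-arm genes were higher in the TRPV3-OE library, and none reached 2-fold. With the median of their 50 nearest genes subtracted, DSTN was at 0.25 and SNRPB at 0.00, and the sign turned for PCNA (−0.02), NOP56 (−0.15) and PRNP (−0.23).

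The widest short-arm difference was that of ISM1, a secreted protein (isthmin), at 13221771 to 13300651 on the plus strand. ISM1 had 8 parental and 153 TRPV3-OE counts, or 0.467 CPM (0.202 to 0.920) and 8.59 CPM (7.28 to 10.1). The log2 ratio was 4.20 (3.19 to 5.44), an 18.4-fold higher level. ACSS1, a mitochondrial acetyl-CoA synthetase, had 29 and 215 counts and a log2 ratio of 2.83 (2.27 to 3.45). CHGB, a chromogranin of secretory granules, had 17 and 103 counts and a log2 ratio of 2.54 (1.79 to 3.38). These genes were barely detected in the parental library.

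SLC4A11 and RALGAPA2 differed from a higher base. SLC4A11, a membrane transporter of the SLC4 family, had 314 and 1264 counts, 18.3 CPM (16.4 to 20.5) against 71.0 CPM (67.1 to 75), with a log2 ratio of 1.95 (1.77 to 2.14). RALGAPA2, the catalytic subunit of a complex that inactivates Ral GTPases, had 342 and 1274 counts and a log2 ratio of 1.84 (1.67 to 2.02). Both exceeded the median of their 50 nearest genes, by 1.45 and 1.23 on the log2 scale. OVOL2, a zinc finger factor of epithelial identity, had 129 and 342 counts (1.35), and RNF24, a RING finger protein, 191 and 444 (1.16). FOXA2, a forkhead factor of endoderm and airway, had 362 and 782 counts (1.05), and JAG1 1735 and 3639 (1.01); both were named after their values were seen. Once the median of the 50 nearest genes was subtracted, these 4 fell short of 2-fold, at 0.75 for OVOL2, 0.67 for RNF24, 0.45 for FOXA2 and 0.42 for JAG1.

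**Figure D4:**
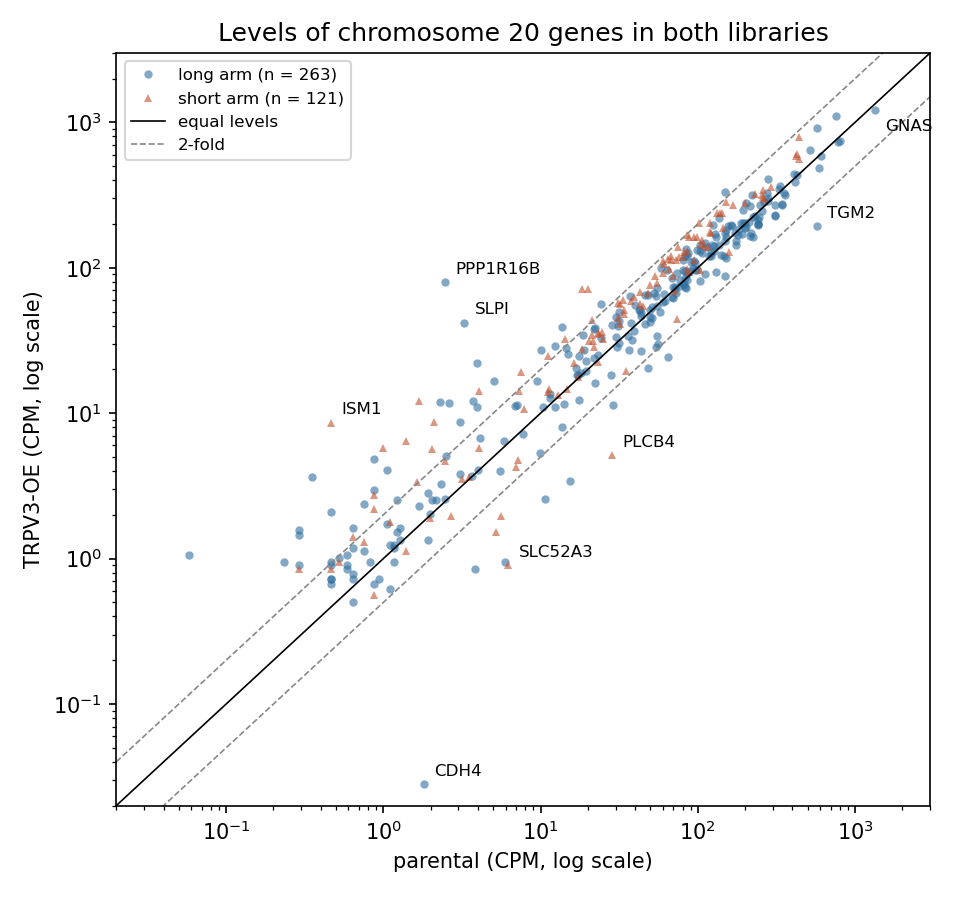
Level of each member in the parental library (x axis, CPM, log scale) and the TRPV3-OE library (y axis, CPM, log scale), with lines at equal levels and at 2-fold, where a count of 0 is drawn at 0.5 counts. Short-arm genes lie mostly above the line of equal levels, and PPP1R16B, SLPI and ISM1 lie far above it.

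Few short-arm genes went the other way. SLC52A3, a riboflavin transporter, had 107 parental and 16 TRPV3-OE counts, with a log2 ratio of −2.80 (−3.66 to −2.03). PLCB4, a phospholipase C that acts downstream of G proteins, had 486 and 92 counts, or 28.4 CPM (25.9 to 31.0) and 5.17 CPM (4.16 to 6.34), with a log2 ratio of −2.46 (−2.80 to −2.13). Its neighbour and paralogue PLCB1 had 36 and 156 counts and a log2 ratio of 2.06, so these paralogues differed in opposite directions. FLRT3, a leucine-rich adhesion protein, had 89 and 27 counts (−1.78), and SDCBP2, the scaffold syntenin-2, 96 and 35 (−1.51). SIRPA, the receptor for CD47, had 603 and 347 counts and a log2 ratio of −0.85, which is short of 2-fold. THBD, the thrombin-binding protein thrombomodulin, named after its value was seen, had 1270 and 786 counts (−0.75).

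On the long arm the most-read genes split in direction. GNAS, the stimulatory G protein alpha subunit, had 22860 and 21590 counts and a log2 ratio of −0.14. YWHAB, a 14-3-3 protein, had 13766 and 13311 counts (−0.10), and CSE1L, a nuclear transport factor, 13411 and 13029 (−0.10). LAMA5, a laminin chain of basement membranes, had 12986 and 19649 counts (0.54), and RPN2, a subunit of the oligosaccharyltransferase, 9809 and 16200 (0.67). Per length, RPS21, a ribosomal protein whose copies make its counts uncertain and which was named after its value was seen, was highest at 504 and 629 CPM per kb.

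The highest ratio of the long arm, and of all 384 members, was that of PPP1R16B, a regulatory subunit of protein phosphatase 1, at 38805705 to 38923024 on the plus strand. PPP1R16B had 42 and 1424 counts, or 2.45 CPM (1.77 to 3.31) and 80.0 CPM (75.9 to 84.2). Its log2 ratio was 5.03 (4.59 to 5.51), a 32.6-fold higher level. SLPI, a secreted inhibitor of leukocyte proteases at 45252239 to 45254564, had 56 and 748 counts, or 3.27 CPM (2.47 to 4.25) and 42.0 CPM (39.0 to 45.1), with a log2 ratio of 3.68 (3.29 to 4.10). Per length, SLPI went from 5.49 to 70.5 CPM per kb and PPP1R16B from 0.383 to 12.5 CPM per kb.

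Next on the long arm came genes with 15 to 236 counts in the parental library. GGT7, of the gamma-glutamyltransferase family, had 68 and 396 counts (2.49), and MAP1LC3A, an LC3 protein of autophagosomes, 39 and 211 (2.38). DBNDD2, a dysbindin-domain protein, had 15 and 86 counts (2.46), and PLTP, the phospholipid transfer protein of lipoproteins, 45 and 208 (2.15). LINC02910, a long noncoding RNA, had 64 and 216 counts (1.70). PHACTR3, an actin and phosphatase 1 regulator, had 236 and 693 counts (1.5), and TOX2, an HMG-box protein, 173 and 487 (1.44). Of the 28 long-arm members at least 2-fold higher, 12 had under 100 summed counts, as did 4 of the 18 on the short arm.

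At the lower end, TGM2, the transglutaminase that crosslinks proteins, stood out by its read number, with 9751 parental and 3456 TRPV3-OE counts. Its levels were 569 CPM (558 to 581) and 194 CPM (188 to 201), with a log2 ratio of −1.55 (−1.61 to −1.5), a 2.93-fold lower level. SLCO4A1, an organic anion transporter, had 102 and 17 counts (−2.64), and JPH2, a junctophilin, 262 and 61 (−2.16). The zinc finger genes ZNF341 and ZNF334 had 182 and 46 counts (−2.04) and 494 and 203 counts (−1.34). MMP24OS had 1102 and 432 counts (−1.41), and ADA, the adenosine deaminase, 829 and 364 (−1.24). CDH4, a classical cadherin, was the one member at 0 in a library, with 31 and 0 counts, and was at least 10.7-fold lower against a floor of 3 counts. That figure leaves out the counting error of the 31 counts, and the interval of its log2 ratio reached up to −3.04. HELZ2 (926 and 511 counts, −0.91), TGIF2 (954 and 532, −0.90) and TOMM34 (2535 and 1552, −0.76) were lower without reaching 2-fold.

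Gene groups of known function were then read across the arms. In each, the median is set beside the −0.01 of all 13931 genes, and a member counts as higher or lower where its interval lay wholly on that side, as it did for 31.9% and 34.7% of all genes. At least 2-fold higher and lower were 7.85% and 6.76% of all genes. No difference between groups or arms was tested. The 18 genes of cell division and DNA replication had a median log2 ratio of 0.01, with 8 higher and 6 lower and none past 2-fold. By arm this was 0.55 on the short arm and −0.08 on the long arm. MCM8, a helicase of DNA repair, had 1472 and 2970 counts (0.96), the centromere protein CENPB 2041 and 3149 (0.57) and the replication factor GINS1 1817 and 2769 (0.55), all on the short arm. On the long arm, UBE2C, a ubiquitin-conjugating enzyme of mitotic exit, had 3727 and 3107 counts (−0.32), and RTEL1, a helicase overlapped by a readthrough gene, 19 and 11 (−0.84), with an interval that holds 0.

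Groups of housekeeping function followed, and their arm medians restate in subsets the arm difference for which the chromosome was picked. The 24 genes of RNA processing and translation had a median of 0.18, with 14 higher and 8 lower, at 0.48 on the short arm (8 genes) and −0.04 on the long arm (16 genes). TRMT6, a tRNA methyltransferase subunit, had 1278 and 2460 counts (0.89), and the splicing factors CRNKL1 and SNRPB2 were at 0.62 and 0.56, or −0.02 and −0.05 after the median of the 50 nearest genes was subtracted. RBM38, an RNA-binding protein of the long arm, was at 0.50. The 20 genes of vesicle and membrane traffic had a median of 0.13, with 10 higher and 5 lower, at 0.63 (4 genes) and 0.04 (16 genes) by arm. The coat protein SEC23B had 2265 and 4222 counts (0.84), the tethering protein VPS16 was at 0.67, the fusion factor NAPB at 0.59, and VAPB of the long arm at 0.45. No gene of either group was past 2-fold.

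In the 11 genes of the ubiquitin and proteasome group the median was 0.06, with 3 higher and 3 lower, at 0.37 and 0.02 by arm. PSMF1, a proteasome regulator, had 2865 and 4778 counts (0.68), and UBE2V1, which shares sequence with a readthrough gene, was at 0.30. The 10 genes of cell death and innate immunity had a median of 0.24, with 5 higher and 2 lower, at 0.31 on the short arm and 0.17 on the long arm. MAVS, the mitochondrial adaptor of RNA sensing, had 2044 and 3624 counts (0.77), TP53INP2, an autophagy factor, was at 0.51, and CD40, with 13 and 20 counts (0.57), had an interval that holds 0.

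**Figure D5:**
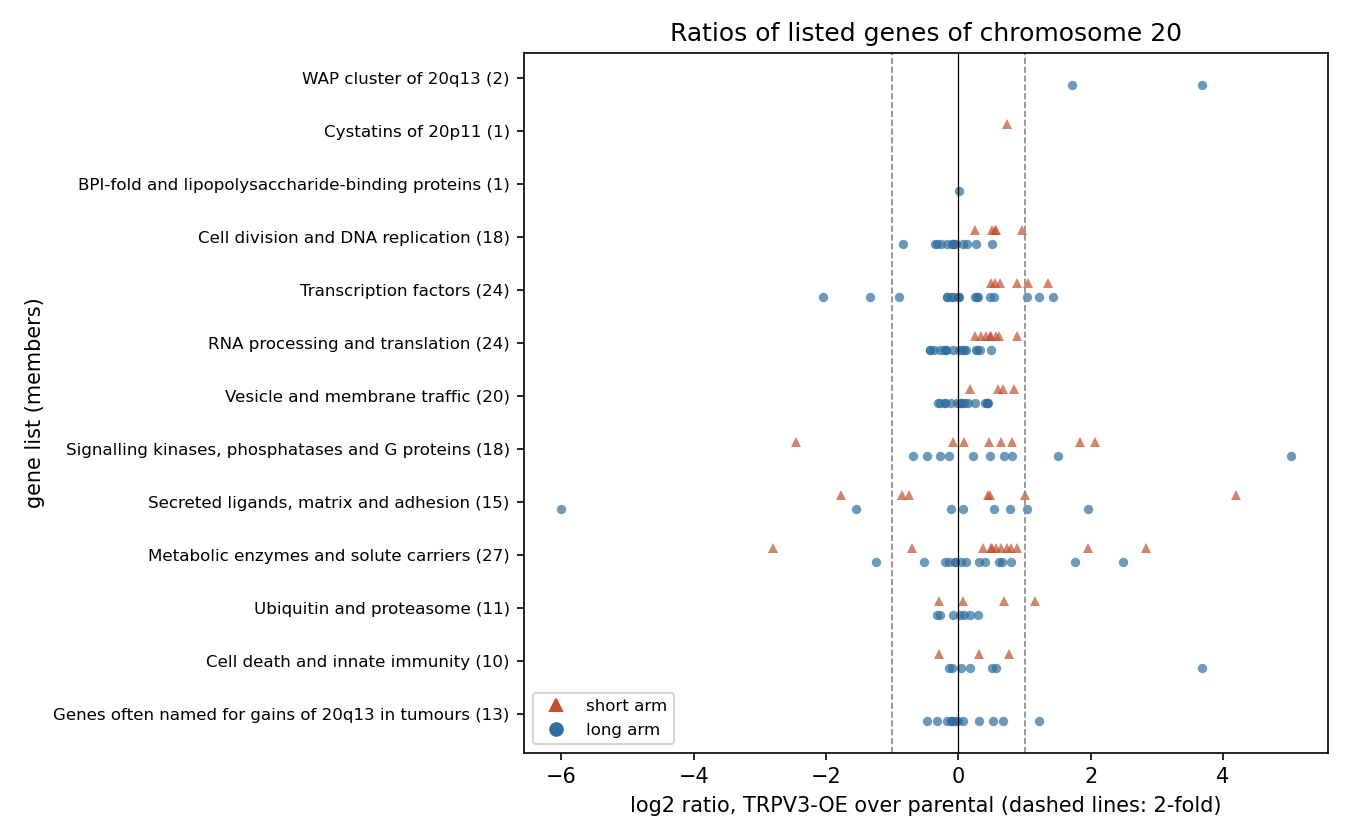
Log2 ratio of TRPV3-OE over parental (x axis, dashed lines at 2-fold) for each measured gene of 13 gene groups (y axis), with triangles for the short arm and circles for the long arm. In cell division, RNA processing and vesicle traffic the short-arm medians (0.55, 0.48 and 0.63) lie above the long-arm medians (−0.08, −0.04 and 0.04).

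The 18 genes of signalling enzymes and G proteins had a median of 0.47, with 11 higher and 5 lower, and 4 at least 2-fold higher (PPP1R16B, PLCB1, RALGAPA2 and PHACTR3) and 1 at least 2-fold lower (PLCB4). By arm their medians were 0.56 and 0.35. The 27 metabolic enzymes and solute carriers had a median of 0.50, with 17 higher and 6 lower, at 0.61 and 0.12 by arm. ACSS1, SLC4A11, GGT7 and SLC13A3, a carboxylate transporter with 15 and 53 counts named after its value was seen, were at least 2-fold higher, and SLC52A3 and ADA at least 2-fold lower. The 15 secreted, matrix and adhesion genes had a median of 0.44, with 7 higher and 6 lower, at 0.44 on the short arm and 0.31 on the long arm. ISM1, JAG1 and COL9A3 were at least 2-fold higher and TGM2, FLRT3 and CDH4 at least 2-fold lower. COL9A3, a collagen IX chain, had 18 and 73 counts (1.96).

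Transcription factors with 20 or more counts numbered 24 of 40 listed, with a median of 0.28, 13 higher and 5 lower. The short-arm factors had a median of 0.76 and those of the long arm −0.00. TFAP2C, an AP-2 factor of the long arm, had 416 and 1006 counts and a log2 ratio of 1.22 (1.05 to 1.39). With FOXA2, OVOL2, TOX2 and SNAI1 (21 and 45 counts, named after its value was seen) it made up the 5 factors at least 2-fold higher, and ZNF341 and ZNF334 were the pair at least 2-fold lower. Relative to their 50 nearest genes, TFAP2C was at 0.94 and SNAI1 at 0.76, short of 2-fold.

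The 13 measured genes often named for gains of 20q13 in tumours had a median of −0.04, with 3 higher and 4 lower. The higher ones were TFAP2C, the nuclear receptor coactivator NCOA3 (1432 and 2386 counts, 0.68) and BCAS4 (323 and 481 counts, 0.52). PTPN1, a tyrosine phosphatase, had 3870 and 2881 counts (−0.48). AURKA, a mitotic kinase named after its value was seen, had 3650 and 3682 counts (−0.04).

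Most of the mucosal gene clusters of the chromosome were silent or nearly so. Of 18 listed genes of the WAP cluster, only SLPI and WFDC2 reached 20 counts. WFDC2, a secreted protein of airway epithelium, had 87 and 298 counts, or 5.08 CPM (4.07 to 6.27) and 16.7 CPM (14.9 to 18.7), with a log2 ratio of 1.72 (1.37 to 2.08). PI3 and WFDC5 had 0 and 1 counts each and the other 14 had 0 in both libraries. Of 11 cystatin genes, CST3, the cystatin of most tissues, was the only member, with 2454 and 4248 counts (0.74). Of 10 BPI-fold and lipopolysaccharide-binding genes, BPIFA2, a secreted salivary protein, was the only member, with 63 and 66 counts and a log2 ratio of 0.01 (−0.51 to 0.53).

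Of 1386 chromosome 20 genes in the files, 1002 stayed under the minimum, 777 of them with 0 counts in both libraries and 225 with 1 to 19 counts. The 8 members with 20 to 22 summed counts had log2 ratios from −0.35 to 4.19, with a median of 1.09. The highest of them, ENSG00000269549, rests on 1 and 19 counts, with an interval from 1.54 to 9.57. The 9 genes with 17 to 19 counts, just outside, ranged from −2.47 to 1.85 with a median of 0.10. A gene near the minimum can pass it through the library in which it is higher, and its interval is wide.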

How the data were processed

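RNA was sequenced from 1 parental and 1 TRPV3-OE library of BEAS-2B cells. The authors deposited unnormalised counts of reads per gene. Per the file headers, featureCounts 1.5.0-p3 made them on the reverse-strand setting, from Ensembl 87 gene models on GRCh38.p7. No option is set there for reads that map to several places or genes, so by default such reads were left out, which lowers overlapping genes and genes with near-identical copies. STAR and DESeq2 are named per the submitters' processing notes, and the STAR version is not given in the sources used here.

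Over all 58051 genes, libraries were scaled by TMM (edgeR 4.0.16, R 4.3.3), with no model fitted. CPM carries exact Poisson 95% intervals and the log2 ratio exact conditional binomial (Clopper-Pearson) ones. A count of 0 was set to 0.5. Intervals cover counting error only, since there was 1 library per group. Where PCR copies of a molecule were counted as separate reads, the intervals are too narrow even for that. Calls needed 2-fold and an interval wholly on that side. The calculation was tested on simulated counts with counting error alone and known differences. That test cannot show how the calls behave under variation between libraries.

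The members, the 13 gene lists and the tests were chosen with earlier results of these data known. The naming rule took, among genes with at least 100 counts, the 10 highest and 10 lowest long-arm and 5 highest and 5 lowest short-arm ratios by the interval bound nearest to 1. It added the 5 most-read genes of each arm and up to 4 genes per list, 69 in all. Symbols matched for 381 of 384 members and gene types (GENCODE 29) for 382. Alternatives were other scalings (total counts, upper quartile, DESeq2 1.42.0), a prior count of 5, other minimums and fold limits, protein-coding genes alone, means, and another division of the arms. Other tools were Python 3.11.15, scipy 1.17.1, numpy 2.4.6, pandas 2.3.3 and, for plots, matplotlib 3.10.9.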

Additional observations from a re-analysis of the deposited data

How the results depend on the processing

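No paired analysis was possible because there is 1 library a group, and no replicate could be left out. No arm median and no 2-fold call of a named gene changed direction. Under every alternative run the short-arm median stayed between 0.55 and 0.65, and the long-arm median between 0.070 and 0.24. With means in place of medians the long arm was at 0.24 and the long-minus-short difference at −0.32 (main values 0.12 and −0.47). Restricted to 500 counts the long-arm median was 0.070, and 6 short-arm and 7 long-arm genes were at least 2-fold higher and 1 and 4 lower (18, 28, 4 and 9 at 20 counts). At that minimum 272 of the 384 members remained. Of these, 4.78% were at least 2-fold higher and 1.84% lower. Across the 23 chromosomes at that minimum, the shares ranged from 0.662% to 5.30% higher and from 0% to 12.4% lower. At 100 counts 16 of 215 long-arm genes were higher. Among protein-coding genes alone 18 of 224 were, against 828 of 11851 on other chromosomes. At a 1.5-fold limit 56 short-arm and 46 long-arm genes were higher and 8 and 17 lower, and at 4-fold 5 and 12 higher and 2 and 5 lower. Shares of all genes at these fold limits were not computed, so these counts have no background beside them. After the data were seen, leaving out FRG1CP, setting a count of 0 to 3 and subtracting the median of the own arm were added: under the last, 9 short-arm genes were then higher and 9 lower. Under other scalings and a prior count of 5, ratios of the 69 named genes stayed within their counting interval in 248 cases and left it in 28. With the median of the 50 nearest genes subtracted, 29 stayed and 40 moved, 13 of 46 higher calls fell below 2-fold, and 5 uncalled genes (NOP56, PRNP, PCNA, SNRPB2 and CRNKL1) turned negative. Depth limits genes near 20 counts, whose intervals span several fold.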

Other observations

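Several noncoding members start next to, or overlap, a protein-coding gene on the opposite strand, and 8 such pairs by name were read side by side. They were picked after the data were seen. SDCBP2-AS1 had 35 and 101 counts and a log2 ratio of 1.47 (0.91 to 2.07), while SDCBP2 was at −1.51. CEBPB-AS1 had 5 and 26 counts and a log2 ratio of 2.32 (0.92 to 4.06), while CEBPB, a basic leucine zipper factor, had 1493 and 2250 counts (0.54). NRSN2-AS1 had 15 and 49 counts (1.65) beside NRSN2 at 0.29, and ZNF337-AS1 had 28 and 60 counts (1.04) beside ZNF337 at 0.56. OSER1-DT had 4 and 17 counts (2.03) beside OSER1 at 0.24, and PANK2-AS1 5 and 15 counts (1.53, with an interval that holds 0) beside PANK2 at 0.57. EYA2-AS1 had 18 and 31 counts (0.73, with an interval that holds 0) beside EYA2 at 0.49. ZBTB46 had 66 and 15 counts (−2.19), while ZBTB46-AS2 had 15 and 12 (−0.38, with an interval that holds 0). Counting used the strand, per the file headers, so reads were given to such partners by strand. How fully the libraries kept the strand was not measured, which matters for low counts opposite a well-read partner.

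Several other genes of the chromosome, also picked after their values were seen, were at least 2-fold higher, as were 7.85% of all genes. PMEPA1, a membrane protein that dampens TGF-beta signalling, had 2543 and 5942 counts and a log2 ratio of 1.17 (1.10 to 1.24). SYCP2, a component of the synaptonemal complex of meiosis, had 6 and 65 counts and a log2 ratio of 3.38 (2.18 to 4.88). KIF16B, an endosomal kinesin of the short arm, where the median was 0.59, was at 1.19 (0.97 to 1.41) and CABLES2 at 1.24 (1.003 to 1.48).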
